A study of Mus musculus with 9 samples.

Results

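The genes described here encode the collagen IV chains Col4a1 and Col4a2, the laminin chains Lama1, Lamb1 and Lamc1, the linker proteins Nid1 (nidogen) and Hspg2 (perlecan), the matrix glycoprotein Sparc and the membrane protein thrombomodulin, Thbd. They were chosen by name as genes of parietal endoderm and its basement membrane, and their probes were found through RefSeq accessions. All 9 were measured and kept among the 15014 named genes tested, by 13 probes in all. Other markers of the cell type were far higher on the same day 7 array as the collagen and laminin genes, together with visceral endoderm markers, as described below. The marker lists were chosen with earlier results of these data known, so they do not check the label.

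Parietal endoderm is the extraembryonic cell layer of the rodent embryo that lines the inside of the trophoblast and lays down Reichert's membrane, an unusually thick basement membrane. Such membranes are built from 2 networks, one of laminin trimers and one of collagen IV trimers, which nidogen and perlecan join. Parietal endoderm cells secrete these proteins in bulk with Sparc, and carry thrombomodulin on their surface, where it binds thrombin and turns it toward activation of protein C.

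The cells were mouse embryonic stem (ES) cells of 3 genotypes, PKM1 knock-in, PKM2 knock-in and wild type, and the labels name no further allele or agent. PKM1 and PKM2 are the splice products of Pkm, a pyruvate kinase gene that acts at the last step of glycolysis. Each line was sampled undifferentiated with the cytokine LIF (day 0) and as floating embryoid bodies without LIF at days 3 and 7, and total RNA of each line on each day was read on 1 array, 9 in all. Each genotype is 1 line, so a day was repeated over 3 lines and a genotype over 3 days, and a p-value measures the spread between these arrays only.

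The share of spots well above background was 54.2 to 61.6 percent, with 0 saturated. The PKM1 knock-in day 0 and day 7 arrays lay on slide 2 with the wild type day 3 array. Slide 3 held just the PKM2 knock-in day 7 array, and slide 1 the other 5. The edited gene, Pkm, had 1 probe, with signals between 12221 and 70305 on the 9 arrays. The place of this probe among the exons was not looked up here, so it does not check the knock-in. Values below are processed fluorescence signals scaled so that every array had the same 75th percentile. They compare 1 gene between arrays and not 1 gene with another. A lower signal from fewer cells of a type and one from less RNA per cell cannot be told apart in such bulk RNA.

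The Col4a1 and Col4a2 genes lie head to head on chromosome 8. The RefSeq gene of Col4a1 reaches to 11312889 and that of Col4a2 begins at 11312805. Between the start sites of the windows described below, they overlap by 22 bases. That shared stretch, chr8:11312805-11312826 of GRCm38.p6, is shown on the strand of Col4a2 because these were the genes whose signals moved most nearly together. Stretches before Lamb1 (chr12:31265043-31265145, plus strand) and Sparc (chr11:55420081-55420330, minus strand) are shown because both were high on the same array. The Lamb1 stretch stops where the RefSeq gene begins, before the start site of its window at 31265293. The 2 GGGCGG matches of that window lie in the part left out. Capitals mark matches to any of 6 motifs searched.
Col4a1 and Col4a2: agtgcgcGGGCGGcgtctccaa
Lamb1: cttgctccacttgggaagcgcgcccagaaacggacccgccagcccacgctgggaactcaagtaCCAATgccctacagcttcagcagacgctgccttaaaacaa
Sparc: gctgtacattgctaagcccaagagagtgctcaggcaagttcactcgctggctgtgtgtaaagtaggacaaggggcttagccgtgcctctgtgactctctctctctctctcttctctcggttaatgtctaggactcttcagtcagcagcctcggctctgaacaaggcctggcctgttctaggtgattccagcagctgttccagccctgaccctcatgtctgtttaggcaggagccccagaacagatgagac

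The motifs were GGGCGG (the GC box of Sp1-type factors), CCAAT (the NF-Y box), TATAAA (the TATA box), AGATAA (a core of GATA factor sites), its variant TGATAA, and ACAAT (a core of Sox factor sites), on both strands. None of the 6 contains another, although neighbouring matches can share bases. RefSeq windows of 300 bases, from 250 before to 50 after the start, were at hand for 6 of the 9 genes (Col4a1, Col4a2, Lamb1, Nid1, Hspg2 and Sparc). GGGCGG was in 5 of these 6 windows, against 35.7 percent of all 32851 mouse windows. The Col4a1 and Col4a2 windows overlap, and the 1 GGGCGG match of Col4a1 is the same bases as a match of Col4a2, counted in both. CCAAT was in 4 of the 6, those of Col4a1, Col4a2, Lamb1 and Nid1, against 37.4 percent of all windows. The TATA box, both GATA cores and the Sox core were in 0 of the 6. TATAAA was in 13.6 percent of all windows, AGATAA in 11.2 percent, TGATAA in 9.05 percent and ACAAT in 31.0 percent. The Sparc window held none of the 6 motifs. These matches describe the letters of the windows only.

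Collagen IV, the network-forming collagen of basement membranes, had its lowest signals at day 3 and its highest at day 7 in each line. Col4a1, the alpha 1 chain, had 129, 78.5 and 63753 units at days 0, 3 and 7 in the PKM1 knock-in line. It had 284, 206 and 1037 units in the PKM2 knock-in line and 359, 175 and 4236 units in wild type. The PKM1 knock-in line thus had the lowest Col4a1 of the 3 lines at days 0 and 3 and the highest at day 7. Day 7 exceeded day 0 by 493-fold in the PKM1 knock-in line, 3.65-fold in the PKM2 knock-in line and 11.8-fold in wild type. In the PKM1 knock-in line this difference was the 18th largest of 15013 genes.

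Col4a2, the alpha 2 chain that joins 2 alpha 1 chains in the common collagen IV trimer, followed the same order. Its signals at days 0, 3 and 7 were 132, 48.2 and 58357 units in the PKM1 knock-in line, 246, 87.4 and 913 units in the PKM2 knock-in line and 318, 139 and 3771 units in wild type. Day 7 was 443-fold, 3.71-fold and 11.8-fold above day 0 in these lines. The lowest day 7 value of either gene, in the PKM2 knock-in line, was above each day 0 and day 3 value. Across the 9 arrays the log2 signals of Col4a1 and Col4a2 had a Pearson r of 0.994, the highest of all pairs among the 9 genes, as a description over arrays that all genes share. After centring, they parted by at most 0.89 log2 units on any array.

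In limma, day 7 against day 0 over the 3 lines gave a log2 change of 4.79 ± 1.38 for Col4a1 (SE, n = 3 lines, adjusted p = 0.222) and 4.75 ± 1.34 for Col4a2 (adjusted p = 0.218), higher in 3 of 3 lines each and not past the test. Without the PKM1 knock-in day 7 array the changes were 2.72 and 2.71. Day 7 against day 3 gave 5.53 for Col4a1 (adjusted p = 0.0871) and 6.13 for Col4a2 (adjusted p = 0.0799), again higher in 3 of 3 lines. With the slide as a block, which leaves the PKM2 knock-in day 7 array without weight, these were 7.06 (adjusted p = 0.0444) and 7.53 (adjusted p = 0.0394). That fit called 979 genes in all, against 0 in the main fit. Without the PKM1 knock-in day 7 array the same changes were 3.46 (limma adjusted p = 0.131) and 4.09 (adjusted p = 0.116).

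**Figure D1:**
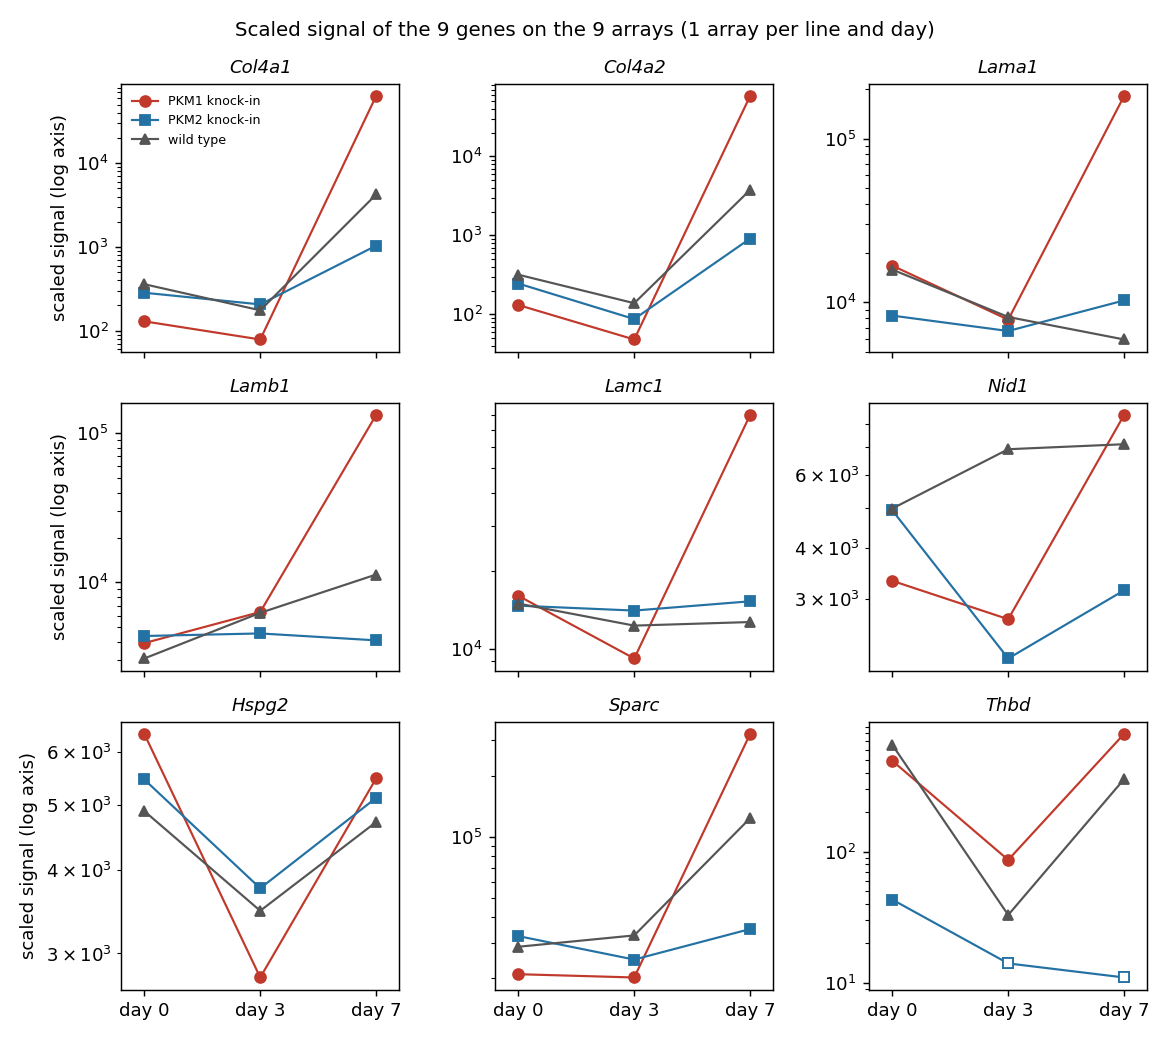
Scaled signal (log axis, with its own range in each panel) of the 9 genes at days 0, 3 and 7, with 1 point per array, lines joining the arrays of a cell line and open points for signals not well above background. The PKM1 knock-in day 7 point is the highest of the 9 for 8 genes, and Hspg2 is the exception.

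The 3 laminin chains together form laminin-111, the laminin of the early embryo. Lama1, the alpha 1 chain, had 16755, 7831 and 182437 units at days 0, 3 and 7 in the PKM1 knock-in line. It had 8293, 6677 and 10270 units in the PKM2 knock-in line and 15843, 8134 and 5926 units in wild type. Day 7 was therefore 10.9-fold (PKM1 knock-in) and 1.24-fold (PKM2 knock-in) above day 0, and 2.67-fold below it in wild type. The wild type day 7 array had the lowest Lama1 of all 9 arrays, although collagen IV was 11.8-fold above day 0 there.

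Lamb1, the beta 1 chain, had 3923, 6338 and 132786 units in the PKM1 knock-in line, 4377, 4553 and 4092 units in the PKM2 knock-in line and 3094, 6256 and 11304 units in wild type at days 0, 3 and 7. Day 7 was 33.9-fold (PKM1 knock-in) and 3.65-fold (wild type) above day 0, and differed by 1.07-fold in the PKM2 knock-in line. Lamb1 was the only one of the 9 genes at least 2-fold higher at day 3 than at day 0 in any line, at 2.02-fold in wild type.

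Lamc1, the gamma 1 chain shared by most laminins, had 16099, 9226 and 80183 units in the PKM1 knock-in line at days 0, 3 and 7. It had 14745, 14115 and 15326 units in the PKM2 knock-in line and 15022, 12351 and 12749 units in wild type. Its day 7 signal was 4.98-fold above day 0 in the PKM1 knock-in line, and the other 8 arrays lay within 0.80 log2 units of each other.

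The laminin genes did not pass the test between days. The log2 change from day 0 to day 7 was 0.78 ± 0.96 for Lama1 (limma, SE, n = 3 lines, adjusted p = 0.722, higher in 2 of 3 lines), 2.28 ± 0.94 for Lamb1 (adjusted p = 0.344, 2 of 3 lines) and 0.71 ± 0.61 for Lamc1 (adjusted p = 0.608, 2 of 3 lines). The direction for Lama1 and Lamc1 rested on 1 array: without the PKM1 knock-in day 7 array their changes were -0.63 and -0.20, and that of Lamb1 was 0.91.

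The linkers between the networks had smaller day 7 differences than collagen IV in each line. Nid1 had 3322, 2680 and 8403 units in the PKM1 knock-in line (days 0, 3 and 7), 4928, 2152 and 3151 units in the PKM2 knock-in line and 4975, 6933 and 7129 units in wild type. Its day 7 signal was 2.53-fold above day 0 in the PKM1 knock-in line, 1.56-fold below it in the PKM2 knock-in line and 1.43-fold above it in wild type. The 3 Nid1 probes gave the same directions in each line, with log2 differences of 1.01 to 1.34 in the PKM1 knock-in line. Over the lines the change was 0.40 ± 0.43 (limma, SE, n = 3 lines, adjusted p = 0.677).

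Hspg2, which encodes perlecan, a heparan sulfate proteoglycan, had 6381, 2762 and 5476 units in the PKM1 knock-in line, 5455, 3753 and 5121 units in the PKM2 knock-in line and 4893, 3474 and 4713 units in wild type at days 0, 3 and 7. Day 3 was the lowest day in each line and day 7 lay within 0.22 log2 units of day 0. The day 7 difference over the lines was -0.12 ± 0.21 (limma, SE, n = 3 lines, adjusted p = 0.809), and its second probe gave 0.09, 0.58 and -0.11 in the PKM1 knock-in, PKM2 knock-in and wild type lines. Its day 3 change of -0.75 ± 0.21 (adjusted p = 0.0950, lower in 3 of 3 lines) did not pass the test either.

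Sparc, a calcium-binding glycoprotein that binds collagen IV, had 20971, 20204 and 322460 units in the PKM1 knock-in line (days 0, 3 and 7), 32339, 24767 and 35051 units in the PKM2 knock-in line and 28646, 32587 and 123676 units in wild type. Day 7 was 15.4-fold, 1.08-fold and 4.32-fold above day 0 in these lines. The order of the lines at day 7 was the same as for collagen IV. The second Sparc probe gave larger log2 differences, 5.33 against 3.94 in the PKM1 knock-in line, 0.30 against 0.12 in the PKM2 knock-in line and 2.66 against 2.11 in wild type. Over the lines the day 7 change was 2.06 ± 0.70 (limma, SE, n = 3 lines, adjusted p = 0.274, higher in 3 of 3 lines), and it was 1.12 without the PKM1 knock-in day 7 array.

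Thbd was lowest in the PKM2 knock-in line on every day. Its signals at days 0, 3 and 7 were 495, 86.5 and 795 units in the PKM1 knock-in line, 43.1, 14.0 and 10.95 units in the PKM2 knock-in line and 655, 32.9 and 359 units in wild type. The day 3 and day 7 signals of the PKM2 knock-in line were not well above background, and all other signals of the 9 genes were. Where the dimmer signal was not well above background, a fold was computed against the higher of that signal and the lowest detected signal of its array, and is written as "at least". The PKM2 knock-in line was 15.2-fold below wild type at day 0, at least 1.59-fold below at day 3 and at least 16.9-fold below at day 7. Against the PKM1 knock-in line it was 11.5-fold lower at day 0, at least 4.19-fold lower at day 3 and at least 37.4-fold lower at day 7. The day 0 arrays of the PKM2 knock-in and wild type lines, and the day 3 arrays of the PKM1 and PKM2 knock-in lines, shared slide 1.

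Over the 3 days the log2 difference in Thbd between the PKM2 knock-in line and wild type was -3.40 ± 0.76 (limma, SE, n = 3 days, adjusted p = 0.143, lower on 3 of 3 days). Against the PKM1 knock-in line it was -4.11 ± 0.76 (adjusted p = 0.608, unadjusted p = 0.00123). Only 1 of the 3 PKM2 knock-in arrays measured Thbd above background, so both values rest on signals near background. Between days 0 and 7 Thbd was not higher in each line. Day 7 was 1.61-fold above day 0 in the PKM1 knock-in line and 1.83-fold below it in wild type. In the PKM2 knock-in line it was at least 2.03-fold below day 0. The log2 change over the lines was -0.72 ± 0.76 (limma, SE, n = 3 lines, adjusted p = 0.674). Thbd was also lower at day 3 than at day 0, by 5.72-fold in the PKM1 knock-in line, at least 2.09-fold in the PKM2 knock-in line and 19.9-fold in wild type. That log2 change was -2.82 ± 0.76 (n = 3 lines, adjusted p = 0.0881). It passed without the PKM2 knock-in day 7 array (adjusted p = 0.0349) and without the day 7 arrays (adjusted p = 0.0413). Those fits called 1258 and 1426 genes in all, against 608 in the main fit. The change did not pass under any other omission, although it stayed below 0. Its limma adjusted p was 0.475 without the wild type line and 0.257 without the PKM1 knock-in line. Without the PKM1 knock-in day 3 array it was 0.292.

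Counted together, 7 of the 9 genes were at least 2-fold higher at day 7 than at day 0 in the PKM1 knock-in line, where 14.5 percent of all genes were. Hspg2 and Thbd were the exceptions, and the median log2 difference was 3.44, against -0.16 over all genes. In the PKM2 knock-in line 2 of 9 were at least 2-fold higher, both collagen IV chains, beside 8.48 percent of all genes, with a median of 0.06 against 0.02 over all genes. In wild type 4 of 9 were at least 2-fold higher (both collagen IV chains, Lamb1 and Sparc), beside 7.6 percent of all genes, with a median of 0.52 against -0.01 over all genes. Those at least 2-fold lower were 0, 1 (Thbd) and 1 (Lama1) of the 9 in these lines, beside 1522, 1360 and 731 of all genes. The 2 arrays lay on the same slide in the PKM1 knock-in line (slide 2) and in wild type (slide 1), and on different slides in the PKM2 knock-in line. With 1 array per line and day, these counts have no test.

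At day 3 the genes lay mostly below day 0. At least 2-fold lower were 4 of 9 in the PKM1 knock-in line (Col4a2, Lama1, Hspg2 and Thbd), beside 9.79 percent of all genes. In the PKM2 knock-in line these were 3 of 9 (Col4a2, Nid1 and Thbd), beside 10.9 percent, on the same slide. In wild type they were 3 of 9 (Col4a1, Col4a2 and Thbd), beside 10.4 percent. The medians were -0.80, -0.46 and -0.49, against 0.07, 0.04 and 0.17 over all genes.

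**Figure D2:**
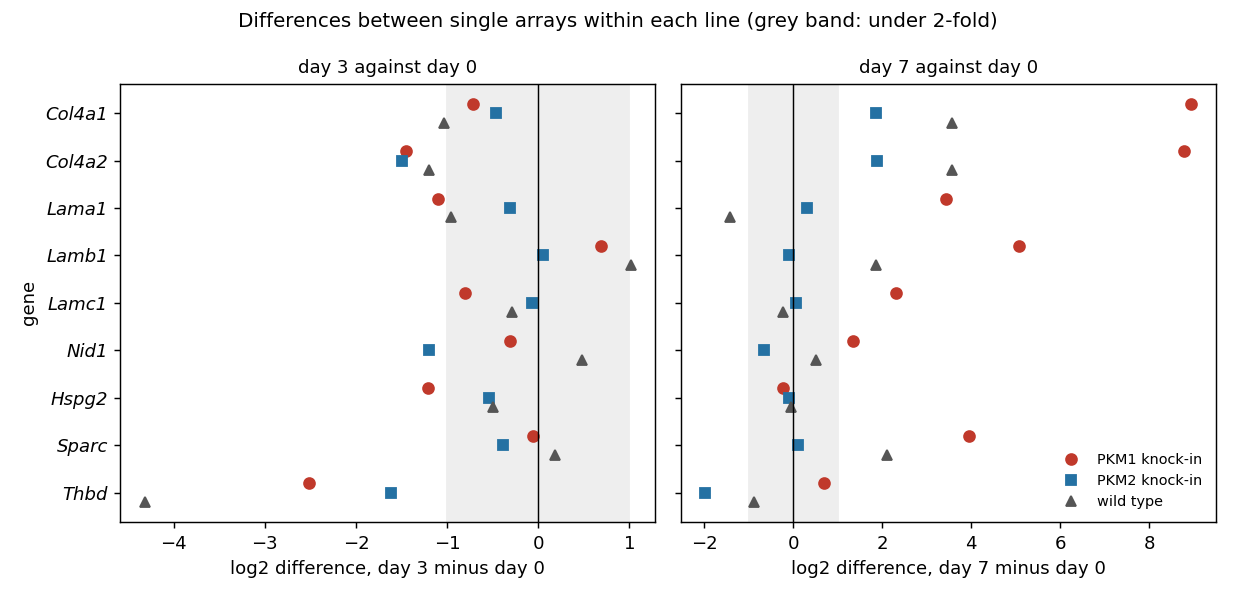
Log2 difference between single arrays within each line, day 3 minus day 0 on the left and day 7 minus day 0 on the right, for each of the 9 genes (grey band, under 2-fold). At day 7 the PKM1 knock-in points reach 8.95, for Col4a1, while the PKM2 knock-in points for laminin and Sparc lie between -0.10 and 0.31.

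At day 7 the lines were set against each other, again with 1 array each, on different slides and sharing arrays between the 3 comparisons. All 9 genes were higher in the PKM1 knock-in line than in wild type, with a median log2 difference of 2.65, against -0.02 over all genes. At least 2-fold higher were 7 of 9, beside 10.2 percent of all genes: Lama1 by 30.8-fold, Col4a2 by 15.5-fold, Col4a1 by 15.0-fold, Lamb1 by 11.7-fold, Lamc1 by 6.29-fold, Sparc by 2.61-fold and Thbd by 2.21-fold. Nid1 and Hspg2 differed by 1.18-fold and 1.16-fold. Collagen IV had the opposite order before day 7: Col4a1 was 2.78-fold lower in the PKM1 knock-in line than in wild type at day 0 and 2.23-fold lower at day 3, and Col4a2 was 2.42-fold and 2.88-fold lower.

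In the PKM2 knock-in line at day 7, 6 of 9 were at least 2-fold lower than in wild type, beside 12.1 percent of all genes. Besides Thbd these were Col4a2 (4.13-fold), Col4a1 (4.09-fold), Sparc (3.53-fold), Lamb1 (2.76-fold) and Nid1 (2.26-fold). Lama1 went the other way, 1.73-fold higher in the PKM2 knock-in line. Against the PKM1 knock-in line, 8 of 9 were at least 2-fold lower in the PKM2 knock-in line, beside 16.2 percent of all genes. The differences were 63.9-fold for Col4a2, 61.5-fold for Col4a1, 32.4-fold for Lamb1, 17.8-fold for Lama1, 9.20-fold for Sparc, 5.23-fold for Lamc1 and 2.67-fold for Nid1. Hspg2, the remaining gene, differed by 1.07-fold.

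The fits over all 9 arrays called 0 of the 9 genes at an adjusted p under 0.05 in any of the 6 comparisons. For day 3 against day 0 limma called 4.05 percent of all genes, and 2 of the 9 had an unadjusted p under 0.05. For day 7 against day 0 it called 0.0932 percent, with 4 of the 9 at an unadjusted p under 0.05, and for day 7 against day 3 it called 0 percent, with 5 of the 9. It called 0.0133 percent for the PKM1 knock-in line against wild type and 0.0133 percent for the PKM2 knock-in line against wild type, with 0 and 1 of the 9 at an unadjusted p under 0.05. Between the PKM2 and PKM1 knock-in lines it called 0 percent, with 1 of the 9. Over all 15014 genes, 3932, 2152, 4550, 1850, 2012 and 1193 had an unadjusted p under 0.05 in these 6 comparisons, in the same order. All 9 genes had a higher fitted level at day 7 than at day 3, with a median log2 change of 1.70 against -0.13 over all genes. Without the PKM2 knock-in day 7 array that comparison called 4 of the 9 (Col4a1, Col4a2, Sparc and Thbd) among 2384 genes. Without the whole PKM2 knock-in line it called the same 4 among 1456 genes.

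The genotype medians over the 9 genes were 0.43 for the PKM1 knock-in line against wild type, -0.68 for the PKM2 knock-in line against wild type and -1.14 for the PKM2 against the PKM1 knock-in line. None of these held its sign when 1 array was left out: the first was -0.13 and the third 0.11 without the PKM1 knock-in day 7 array, and the second was 0.21 without the PKM2 knock-in day 7 array. With the slide as a block they were 0.03, 0.64 and 0.32.

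**Figure D3:**
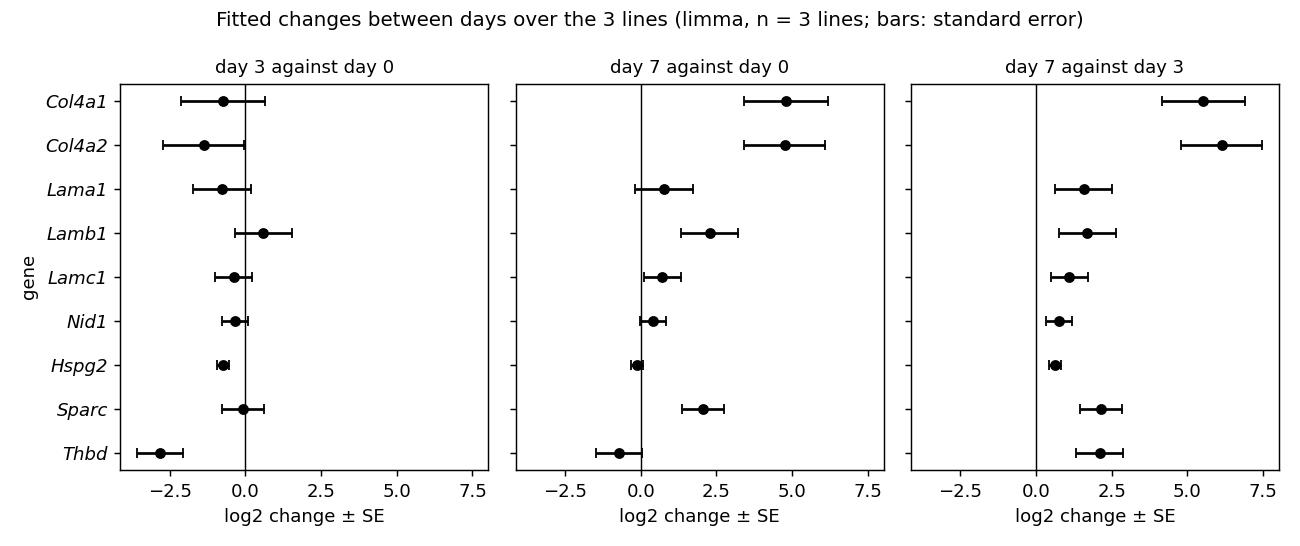
Fitted log2 change between days for each of the 9 genes over the 3 lines, with bars for the standard error. Between day 7 and day 3 all 9 points lie above 0, from 0.63 for Hspg2 to 6.13 for Col4a2, and none of the plotted changes passed the test.

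Across the 9 arrays each gene was compared with the mean of the other 8 as a description. Sparc, Col4a2 and Col4a1 followed that mean most closely, with r of 0.94, 0.94 and 0.92. Lamc1, Lamb1 and Lama1 had r of 0.88, 0.87 and 0.80, Nid1 had 0.69, Thbd 0.50 and Hspg2 0.44. Without the PKM1 knock-in day 7 array, r stayed at 0.81 for Col4a2, 0.80 for Sparc and 0.72 for Col4a1, but was 0.31 for Lamb1, 0.25 for Lamc1 and -0.05 for Lama1. The likeness of the laminin chains to the other genes thus rested on that 1 array.

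The 8 genes outside the group whose log2 signals were most like its centred mean, among 13896 candidates on 9 arrays, had r from 0.978 to 0.988. They were Bicc1, which encodes an RNA-binding protein, the retinol carrier gene Rbp4, the endoderm transcription factor gene Gata4, the kinase gene Wnk2, the histone demethylase family gene Phf2, the receptor gene Lrp10, the tissue factor gene F3 and the sulfhydryl oxidase gene Qsox1. In all, 290 candidates reached an r of 0.9. Bicc1 had 265, 217 and 3149 units in the PKM1 knock-in line (days 0, 3 and 7), 228, 215 and 255 units in the PKM2 knock-in line and 400, 258 and 763 units in wild type. Its highest array, like those of 8 of the 9 genes, was the PKM1 knock-in day 7 array.

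Most tested markers of both extraembryonic endoderm types were at least 2-fold higher at day 7 in the PKM1 knock-in and wild type lines. Differences against a signal that was not well above background are given as bounds, computed as for Thbd, and fitted changes are followed by the arrays that measured the gene where these were under 3 on a day. All 15 other parietal endoderm markers were at least 2-fold higher at day 7 than at day 0 in the PKM1 knock-in line, 6 of 15 in the PKM2 knock-in line and 9 of 15 in wild type, with median log2 differences of 5.25, 0.77 and 1.84. Over the lines limma gave log2 changes of 6.47 for Srgn, a granule proteoglycan gene (adjusted p = 0.159), 4.81 for the transcription factor gene Sox17 (0.229), both measured on 2 of 3 day 0 arrays, 4.54 for the parathyroid hormone receptor gene Pth1r (0.221) and 4.41 for the endocytic adaptor gene Dab2 (0.215). The summed signal of the 15 was 8849, 9937 and 160855 units in the PKM1 knock-in line (days 0, 3 and 7), 14721, 10901 and 11651 units in the PKM2 knock-in line and 12465, 9807 and 35359 units in wild type. Vim alone made up 51.2, 54.3 and 64.5 percent of the wild type sums at days 0, 3 and 7. It made up 56.9 percent of the PKM2 knock-in day 0 sum, and had 8375 units there against 2893 at day 7. None of the 15 was below background on the day 7 arrays of the knock-in lines, and 1 was on that of wild type.

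Visceral endoderm is the sister layer around the embryo itself. Of its 18 markers 14 were tested, and 14 of these were at least 2-fold higher at day 7 in the PKM1 knock-in line, 7 in the PKM2 knock-in line and 10 in wild type, with medians of 8.64, 1.18 and 2.56, the first being 8.25 with undetected signals at their bounds. The shares of all genes were 14.5, 8.48 and 7.6 percent. At least 2-fold lower were 0, 1 and 1 of the 14. The fetal serum protein gene Afp and the transthyretin gene Ttr were well above background on the 3 day 7 arrays and no others, and passed the filter through these. Over the lines Afp was at least 111-fold higher at day 7 and Ttr at least 116-fold. Because the filter kept them through the day 7 arrays, a higher day 7 was fixed in advance, and no test is given. Both are among the genes counted above as higher in each line. In limma the log2 change was 5.45 for Foxa2, an endoderm transcription factor gene (adjusted p = 0.167), and 5.30 for the apolipoprotein gene Apob (adjusted p = 0.222), both measured on 2 of 3 day 0 arrays. Their summed signal was 3406, 3256 and 585320 units in the PKM1 knock-in line (days 0, 3 and 7), 4020, 3353 and 7320 units in the PKM2 knock-in line and 2695, 3398 and 14300 units in wild type. All 14 were well above background on each day 7 array. How much of the matrix genes' signal came from either cell layer was not tested.

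Genes for the processing and cross-linking of collagen IV differed between the lines at day 7. Of 20 tested, 11 were at least 2-fold higher at day 7 in the PKM1 knock-in line, 1 in the PKM2 knock-in line and 7 in wild type, with medians of 1.24, -0.09 and 0.72. With undetected signals at their bounds the counts were 11, 0 and 6. The shares of all genes were 14.5, 8.48 and 7.6 percent, beside which the 1 gene of the PKM2 knock-in line does not stand out. At least 2-fold lower were 0, 1 and 0 of the 20. The cross-linking lysyl oxidase gene Loxl2 had log2 differences of 5.35 in the PKM1 knock-in line, -0.96 in the PKM2 knock-in line and 4.95 in wild type. Peroxidasin, Pxdn, which makes the sulfilimine cross-links of collagen IV, had 3.96, 0.21 and 2.38. The prolyl 4-hydroxylase gene P4ha1 was at 4.31 (PKM1 knock-in), -0.20 (PKM2 knock-in) and 1.17 (wild type). The prolyl 3-hydroxylase gene P3h2 was undetected on each day 0 array, and its day 7 signal was at least 7.92-fold higher in the PKM1 knock-in line and at least 1.94-fold higher in wild type, and it was not well above background on either day in the PKM2 knock-in line. In limma 0 of the 20 passed in any of the 6 comparisons.

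Other basement membrane genes were mixed. Of 22 tested, 6 were at least 2-fold higher at day 7 in the PKM1 knock-in line, 3 in the PKM2 knock-in line and 4 in wild type, with medians of -0.03, -0.39 and 0.20. At the bounds, 5, 3 and 4 were, and the PKM2 knock-in median was -0.18. The changes over the lines were -2.56 for the fibulin gene Fbln2 (limma adjusted p = 0.163), 2.33 for Tinagl1 (0.473), 2.31 for Frem1 (0.0624, measured on 1 of 3 day 0 arrays) and 1.98 for the collagen IV alpha 5 chain gene Col4a5 (0.442, measured on 2 of 3 arrays of each day). In day 3 against day 0, 2 of the 22 passed, both lower, beside 4.05 percent of all genes in either direction. Of 14 laminin and collagen IV receptor genes, 6, 1 and 5 were at least 2-fold higher at day 7 in the PKM1 knock-in, PKM2 knock-in and wild type lines, with medians of 0.51, -0.41 and 0.46. At least 2-fold lower were 1, 4 and 0 of the 14, beside the same shares of all genes. The integrin genes Itgb1, Itgav, Itga3 and Itga5 had changes of 1.15, 0.91, 0.84 and 0.82 over the lines, none past the test.

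Among 13 matrix protease and inhibitor genes, 6, 1 and 6 were at least 2-fold higher at day 7 in the PKM1 knock-in, PKM2 knock-in and wild type lines, with medians of 0.42, -1.31 and 0.68. The stromelysin gene Mmp3 had a change of -6.13 over the lines (limma adjusted p = 0.0655, measured on 1 of 3 day 7 arrays), and Adamts9, Ctsl and Timp1 had 1.93, 1.39 and -1.39. Among 15 coagulation and protein C pathway genes, the partners of thrombomodulin, 10, 4 and 3 were at least 2-fold higher at day 7 in these lines, with medians of 2.47, 0.15 and 0.42. At least 2-fold lower were 1, 4 and 1 of the 15, beside the same shares of all genes. The plasminogen activator gene Plat had 2.93 over the lines (adjusted p = 0.218), F3 had 2.06, F5 had 1.97 and Proc, the gene of protein C itself, had 1.82. Plat and 2 others of these 15 are also in the parietal endoderm list. At day 3, 1 coagulation gene and 1 protease gene passed as lower than at day 0. Beside the 4.05 percent of all genes called there in either direction, 1 gene of either list does not stand out.

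Markers of other cell types were set beside the matrix genes. The endothelial list, which covers a cell type rich in thrombomodulin and collagen IV, had 8 of 13 genes tested, with Cdh5, Tie1, Emcn, Erg and Sox18 well above background on at most 2 arrays. The summed signal of the 8 was 7252, 6111 and 5117 units in the PKM1 knock-in line (days 0, 3 and 7), 5610, 6116 and 6209 units in the PKM2 knock-in line and 5706, 6388 and 5654 units in wild type. Kdr alone made up 73.9 to 83.8 percent of it. At least 2-fold higher at day 7 were 4, 1 and 1 of the 8, with medians of 0.31, -0.48 and 0.24. At the bounds, 3, 1 and 1 were, and the PKM1 knock-in median was 0.47. Ets1, Cldn5 (measured on 2 of 3 day 0 arrays), Esam and Eng had changes of 1.63, 0.93, 0.91 and -0.77 over the lines. At day 3, 1 of the 8 passed as higher, beside 4.05 percent of all genes in either direction.

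Fibroblast and feeder cell markers had 17 of 19 tested, of which 7 were called lower at day 3 than at day 0 and 2, Mgp (-7.09, limma adjusted p = 0.0290) and Col6a3 (-3.74, adjusted p = 0.00410), lower at day 7. Both were measured on 1 of 3 day 7 arrays. Limma called 4.05 percent of all genes at day 3 and 0.0932 percent at day 7, in either direction. The other 2 with the largest changes were Dcn (-5.04, adjusted p = 0.169) and Acta2 (2.61, adjusted p = 0.608, measured on 2 of 3 day 7 arrays). Their summed signal was 80156, 47500 and 56357 units in the PKM1 knock-in line, 59305, 31459 and 43181 units in the PKM2 knock-in line and 69127, 41909 and 77457 units in wild type, of which Fn1 alone made up 65.7 to 97.9 percent. At least 2-fold lower at day 3 were 13, 12 and 12 of the 17, with median log2 differences of -2.41, -2.08 and -2.60. At day 7, 4, 0 and 4 were at least 2-fold higher and 5, 11 and 6 at least 2-fold lower, with medians of -0.42, -2.44 and -0.06, the second being -1.78 at the bounds. Among all genes 1522 of 15013, 1360 of 15014 and 731 of 15013 were at least 2-fold lower at day 7 in these lines. Those at least 2-fold higher at day 7 were 14.5, 8.48 and 7.6 percent. At day 3, 9.79, 10.9 and 10.4 percent of all genes were at least 2-fold lower. The part of such cells in the day 3 values of the matrix genes was not tested.

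Of 11 trophoblast markers, 8, 0 and 6 were at least 2-fold higher at day 7 in the PKM1 knock-in, PKM2 knock-in and wild type lines, and 1, 6 and 1 at least 2-fold lower, with medians of 2.05, -1.30 and 1.33. At the bounds 5 were lower in the PKM2 knock-in line, with a median of -0.87. Cdx2, Hand1, Gata3 and Krt7 had changes of 1.87, 1.68, 1.47 and 1.33 over the lines, none past the test, and all but Gata3 were measured on 2 of 3 arrays of at least 1 of the days. Of 10 genes of undifferentiated ES cells, 8 were at least 2-fold lower at day 7 in the PKM1 knock-in line, 2 in the PKM2 knock-in line and 1 in wild type, with medians of -1.87, 0.01 and -0.63. Beside the counts of all genes given above, 1 or 2 lower genes in either of these lists do not stand out. Klf4, Dppa3, Tfcp2l1 and Zfp42 had changes of -1.65, -1.46, -1.27 and -0.99 over the lines. At day 3, 2 of the 10 passed as lower, beside 4.05 percent of all genes in either direction.

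**Figure D4:**
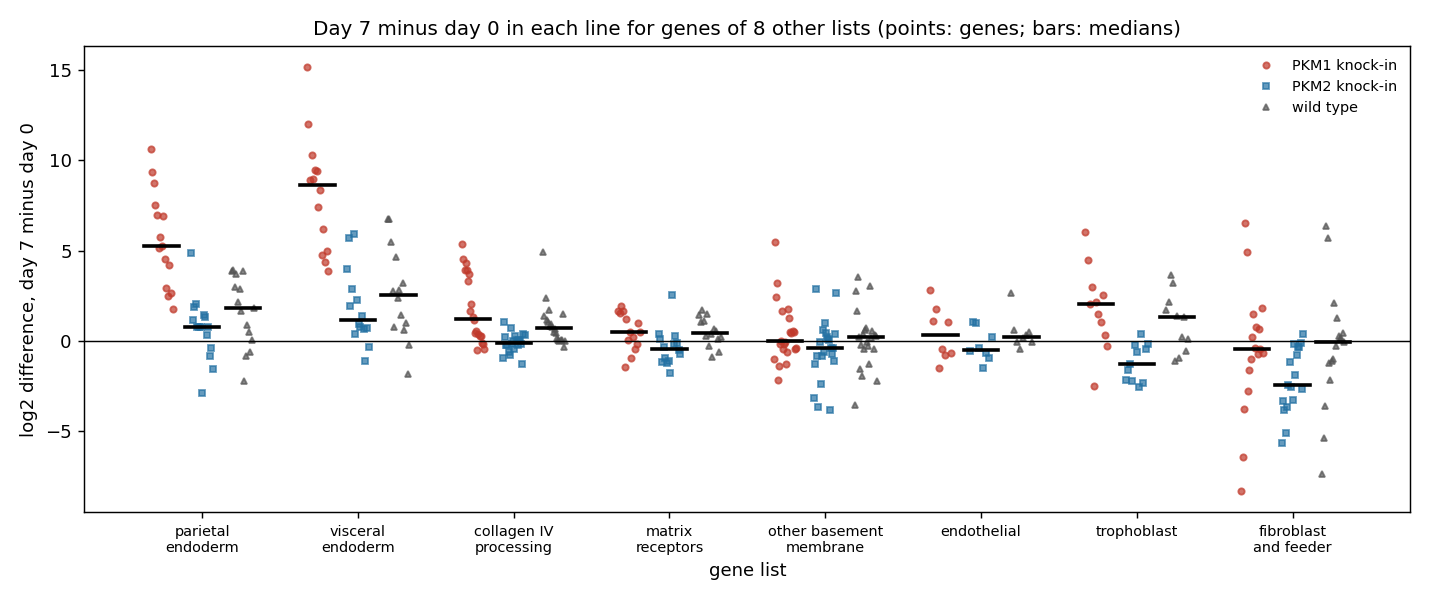
Log2 difference between the day 7 and day 0 arrays of each line for the tested genes of 8 lists, with 1 point per gene, undetected signals at their measured value, and a bar at the median. The parietal and visceral endoderm medians are 5.25 and 8.64 (PKM1 knock-in), 0.77 and 1.18 (PKM2 knock-in) and 1.84 and 2.56 (wild type).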

How the data were processed

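RNA of the 9 samples was Cy3-labelled and hybridised to one-colour Agilent mouse arrays, per the labels' protocols. Per the submitters' processing notes, the authors used Agilent Feature Extraction 10.10, and the deposited intensity is its background-subtracted processed signal of a spot. The authors' value table held the same intensities within 0.497 percent.

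Of 62976 spots, 3671 controls were left out, as were 133 to 225 spots per array with a quality flag, none of them a spot of the 9 genes. Probes (55681) were named by RefSeq accession (27235 named). Signals were scaled to a common 75th percentile, floored at 5 and log2 transformed. The filter kept genes well above background on 3 or more of the 9 arrays, each read from its brightest probe. All 9 arrays entered 1 limma fit (version 3.58.1, R 4.3.3) with genotype and day as additive terms, Benjamini-Hochberg adjustment over all 15014 genes and a threshold of 0.05. Repeats are lines or days, and with so few arrays the standard error of a log2 change had a median of 0.26. The method was checked on simulated data. Figures used Python 3.11.15 and matplotlib 3.10.9.

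Named were the 9 genes, Pkm, up to 4 genes per other list with the largest day 7 against day 0 change, and the 8 genes most like the mean (r over 9 arrays, well above background on at least 6). The 9 genes and the other 11 lists were chosen with earlier results of these data known. Other settings were normexp background correction, quantile and detected-probe scaling, the authors' table, filters, floors, the mean of probes, moderation, the slide as a block, and leaving out each line, day or array. Sequences came from RefSeq (GRCm38.p6).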

Additional observations from a re-analysis of the deposited data

Results flagged for a closer look

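Lama1 moved in opposite directions between day 0 and day 7 in 2 lines. The log2 difference was 3.44 in the PKM1 knock-in line and -1.42 in wild type, each between 2 arrays of the same slide. The difference between the lines was not tested, because each rests on 1 array per day.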

How the results depend on the processing

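Of 26 other settings fitted, 15 left out a line, day or array. Day 7 against day 0, the PKM1 knock-in line against wild type, the PKM2 knock-in line against wild type and the PKM2 against the PKM1 knock-in line called 0 of the 9 genes under each setting that gave a value. When 1 line, day or array was left out, day 3 against day 0 called 0 to 2 of the 9 and day 7 against day 3 called 0 to 4. The slide as a block called 3 in the last (979 genes in all, against 0). With such omissions the median of the 9 genes was -0.86 to 0.029 for day 3 against day 0 and -1.24 to 0.21 for the PKM2 knock-in line against wild type. The median was -0.063 to 1.88 for day 7 against day 0, -0.16 to 1.39 for the PKM1 knock-in line against wild type and -2.40 to 0.13 for the PKM2 against the PKM1 knock-in line. The first of these 5 was -0.54 under normexp correction and the second 0.64 with the slide as a block. Under normexp 1 gene, not 3, was at least 2-fold lower at day 3 in wild type. Directions turned in the following. For day 3 against day 0 the omissions gave -1.78 to 0.29 for Col4a1, -1.38 to 0.029 for Lama1 and -0.71 to 0.23 for Lamc1, each highest without the PKM1 knock-in day 3 array. They gave -0.75 to 0.13 for Nid1 and -0.56 to 0.48 for Sparc, highest without the PKM2 knock-in day 0 array, and -0.14 to 1.32 for Lamb1, lowest without the PKM1 knock-in day 0 array. For day 7 against day 0 they gave -0.63 to 1.88 for Lama1, -0.20 to 1.21 for Lamc1 and -0.063 to 0.93 for Nid1, each below 0 without the PKM1 knock-in line or its day 7 array. They gave -0.20 to 0.018 for Hspg2, highest without the PKM1 knock-in day 0 array, and -1.42 to 0.21 for Thbd, highest without the PKM2 knock-in day 7 array. Hspg2 was 0.032 with the mean of probes and Thbd 0.21 with the slide as a block. The cause was not tested. Among all genes, day 3 against day 0 called 608, and 149 with no filter, 929 under normexp and 1008 with trend and robust moderation. Day 7 against day 3 called 35 under normexp, 71 with a filter on all 9 arrays and 260 with trend and robust moderation. With a line, day or array left out these counts were 0 to 1426 and 0 to 2384. Day 7 against day 0 called 14 genes, 1 with a filter on all 9 arrays, 23 with trend and robust moderation, and 0 to 227 with omissions. Scaling to detected probes moved the median of all genes for day 3 against day 0 to -0.08, against 0.09. Thbd in the PKM2 knock-in line is limited by background at days 3 and 7. The day comparisons are paired by line in the fit itself, and the labels give no replicate numbers for another block.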
